A study of Rattus norvegicus with 6 samples.

Results

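The 9 genes described here encode products of red blood cells and their precursors. They are the globin genes Hba-a1, Hba-a2 and Hbb, and the erythroid genes Alas2, Car1, Hemgn, Slc4a1, Epb42 and Ahsp. They were chosen by symbol from 33294 gene symbols. Car1, Alas2 and Hemgn entered the list because their levels had been seen to differ between the groups of these same libraries. The difference of the 9 genes between the groups is therefore given below as a description. Where p-values or calls are counted for the 9 genes, nothing is read from them. All 9 had counts in every library and passed the filter on low counts.

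RNA of the pituitary gland was sequenced from 6 male Sprague-Dawley rats aged 11 weeks. The nicotine group (n = 3) was born to dams that received nicotine tartrate, 6 mg/kg per day, from an osmotic mini-pump placed under the skin during gestation. The control group (n = 3) was born to dams whose pump held sterile saline. The sources used here do not state which dam or litter each rat came from, so the spread between libraries measures the spread between these rats only. Blood was drawn from the animals under anaesthesia before the organs were taken, and the methods do not mention perfusion of the tissue.

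Haemoglobin carries oxygen in red cells as a tetramer of alpha and beta chains, each holding a haem group. Adult alpha chains are made from Hba-a1 and Hba-a2 and beta chains from Hbb and its neighbours. Red cells lose their nucleus late in maturation but keep globin and some other transcripts for a time, and young red cells, the reticulocytes, carry most of the RNA found in circulating red cells. A gland as rich in vessels as the pituitary holds blood when it is collected. In RNA from a whole gland, fewer red cells and less RNA per red cell cannot be told apart.

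The libraries held 28318383 to 85977002 counts, with 20658 to 22120 genes at 1 count or more, and the scaling factors of the trimmed mean of M-values (TMM) lay between 0.957 and 1.07. The mean distance of nicotine replicate 2 to the other libraries was 90.8 on the log2 scale, against 72 to 80.7 for the other 5. In the deposited files each nicotine library has a larger total than the control library of the same number, whereas in the read numbers that the study lists each control library is the larger. The groups here follow GEO's labels, and whether the files or the read numbers were exchanged cannot be told from the sources used here. If the files were, every direction given below would turn. The pituitary identity of the libraries was plain from Gh1 (growth hormone), at 52429 to 115788 CPM (counts scaled to a library of 1e6 counts), and from Pomc (at least 20412 CPM) and Prl (prolactin, at least 17547 CPM). The pituitary hormone and regulator list summed to 113986, 159371 and 176631 CPM in nicotine replicates 1 to 3 and to 159879, 146258 and 153385 CPM in control replicates 1 to 3.

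The globin genes lie in clusters of near-identical copies, which bears on how their reads were assigned. The sequences upstream of the start of Hba-a1, Hba-a2 and Hbb are printed to show how alike the alpha copies are and how the beta gene differs. They are RefSeq sequences of the GRCr8 build, which is not the build of the files (rn7), and each holds the 150 bases before the start on the minus strand. Capitals mark CCAAT (also read as ATTGG on the other strand), TATAAA and CACACCC, 3 motifs known from globin promoters.
Hba-a1, chr10:15842581-15842730: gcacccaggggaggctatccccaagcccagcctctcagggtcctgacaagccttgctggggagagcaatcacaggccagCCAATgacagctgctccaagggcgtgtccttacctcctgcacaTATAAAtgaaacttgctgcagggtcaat
Hba-a2, chr10:15829139-15829288: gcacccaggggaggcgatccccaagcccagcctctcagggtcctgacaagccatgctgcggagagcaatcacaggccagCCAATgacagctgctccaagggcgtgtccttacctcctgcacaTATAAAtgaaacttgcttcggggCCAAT
Hbb, chr1:167663722-167663871: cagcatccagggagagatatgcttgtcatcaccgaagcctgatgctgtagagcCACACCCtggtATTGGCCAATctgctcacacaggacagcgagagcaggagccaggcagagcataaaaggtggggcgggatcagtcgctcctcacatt

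Hba-a1 and Hba-a2 were identical at 144 of these 150 bases (96%) and at 47 of the first 50 transcribed bases (94%). In both alpha genes CCAAT began 71 bases and TATAAA 28 bases before the start, and Hba-a2 held another CCAAT 5 bases before it. Hbb held CACACCC 97 bases before the start and CCAAT at 86 bases on the minus strand of the window and at 81 bases on its plus strand. Among all 33469 promoter windows of the reference, with 250 bases upstream searched on both strands, CCAAT was present in 34%, TATAAA in 12.9%, CACACCC in 6.12% and AGATAA, the core letters bound by GATA factors, in 10.3%. The reference held 7 windows for 6 of the 9 genes, namely Hba-a1, Hba-a2, Hbb, Alas2, Hemgn and Epb42. AGATAA was found in 2 of the 7, that of Hemgn and that listed for Alas2, whose start in the reference may not be its first exon, and CACACCC in 1, that of Hbb. A match of letters is a description of the window and not evidence of binding.

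The chain genes come first. Hba-a1, an alpha chain gene, was measured at 2358, 1580.4 and 5000.2 CPM in nicotine replicates 1, 2 and 3 and at 4068, 5988 and 8982 CPM in control replicates 1, 2 and 3. Nicotine replicates 1 and 2 were below every control, while nicotine replicate 3 exceeded control replicate 1, so the groups overlapped. The means were 2979.6 ± 1793 and 6346 ± 2476 CPM (SD, n = 3), and the log2 fold change, nicotine minus control, was -1.09 (standard error 0.47).

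Hba-a2, the second alpha gene, stood at 711, 563 and 1868 CPM after nicotine and at 1361, 1685 and 2065 CPM in controls. Here nicotine replicate 3 exceeded control replicates 1 and 2, and the log2 fold change of -0.70 (standard error 0.40) was the smallest of the 9 genes. Hbb, the beta chain gene, was at 1685, 889.8 and 2701 CPM after nicotine and at 2406, 3056 and 4952 CPM in controls, with a log2 fold change of -0.98 (standard error 0.42). Again only nicotine replicate 3 reached the control range. Because the counting rule for reads that fit several copies is not stated, the split of reads between Hba-a1, Hba-a2 and the other globin copies is uncertain.

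A sum over the copies does not depend on how reads were split among them. Reads left uncounted would still be missing, and reads counted at several copies would enter the sum more than once. The adult globin symbols in the files were Hba-a1, Hba-a2 and Hba-a3 for alpha chains and Hbb, Hbb-b1, Hbb-bs and LOC100134871 for beta chains. Together they took 0.537%, 0.356% and 1.02% of all counts in nicotine replicates 1 to 3. The share was 0.837%, 1.14% and 1.79% in control replicates 1 to 3. The 95% Wilson intervals, which cover counting error only, reached at most 0.0043 percentage points to either side. The mean share was 0.638% ± 0.344 after nicotine and 1.26% ± 0.487 in controls (SD, n = 3), 1.97 times as much in controls, and nicotine replicate 3 lay above control replicate 1.

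The balance of the chains differed less than their amount. The ratio of alpha to beta counts was 1.47, 1.9 and 1.93 after nicotine and 1.7, 1.99 and 1.74 in controls, with means of 1.77 ± 0.26 and 1.81 ± 0.157 (SD, n = 3). The ratio of Hba-a1 to Hba-a2 was 3.32, 2.81 and 2.68 after nicotine and 2.99, 3.55 and 4.35 in controls, so both ratios overlapped between the groups. Since genes of unlike length cannot be set against each other in CPM, these ratios are read across libraries only.

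**Figure D1:**
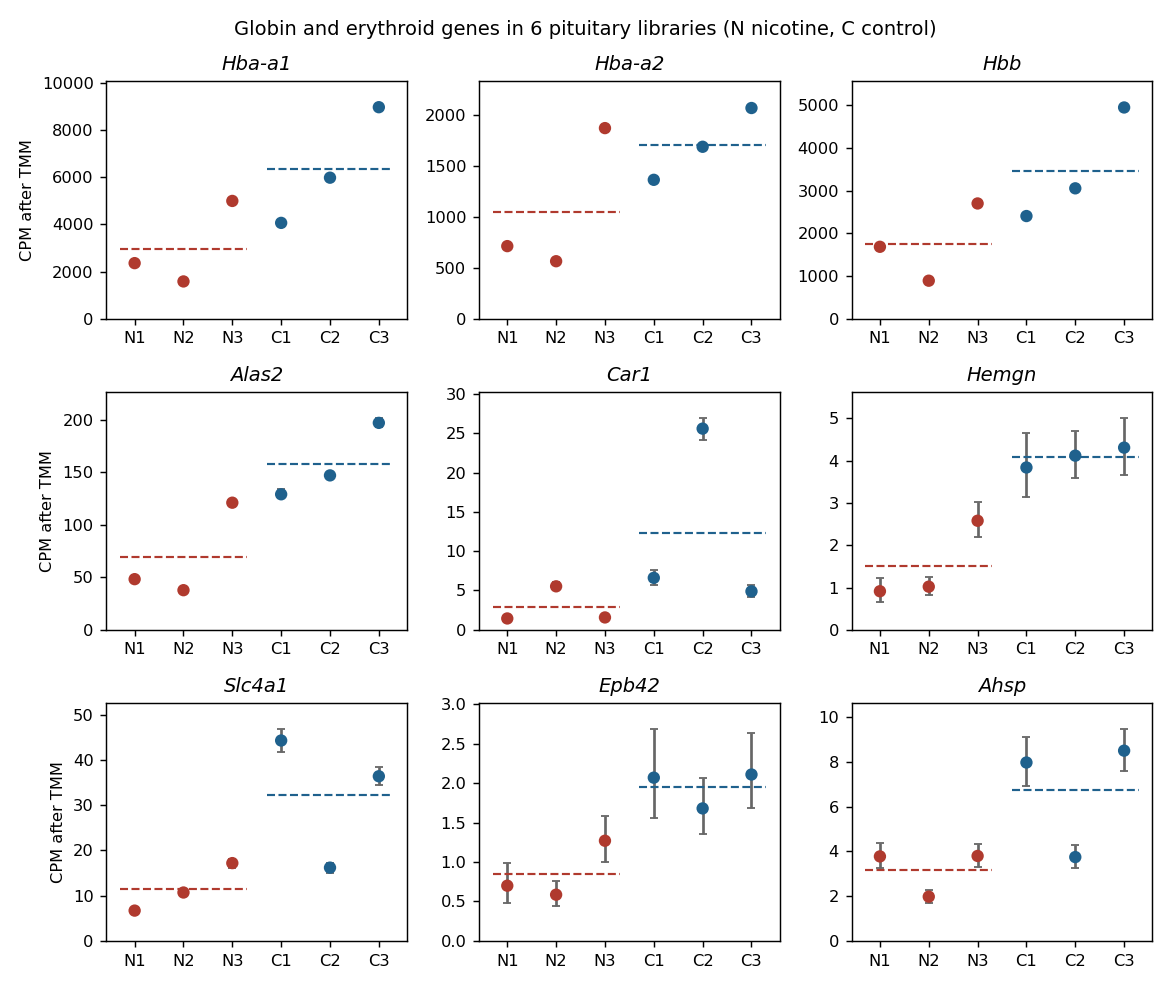
Level of each of the 9 genes in the 6 libraries, in CPM after TMM scaling on a linear axis that starts at 0 and differs between panels. Points are single rats (N1 to N3 nicotine, C1 to C3 control), bars are exact 95% Poisson intervals of the count (counting error only), and dashed lines are group means. The groups are separate for Alas2, Hemgn and Epb42, and C2 stands alone for Car1.

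Alas2 encodes the erythroid form of 5-aminolevulinate synthase, the first enzyme of haem synthesis. It was at 48.2, 37.7 and 121 CPM after nicotine and at 129, 147 and 197 CPM in control libraries. The groups did not overlap, and nicotine replicate 3 came close to control replicate 1. The means were 68.8 ± 45.1 and 158 ± 35.3 CPM (SD, n = 3), with a log2 fold change of -1.20 (standard error 0.37).

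Ahsp encodes the chaperone that holds free alpha chains until they pair with beta chains. It stood at 3.78, 1.98 and 3.8 CPM after nicotine and at 7.98, 3.75 and 8.51 CPM in controls. Control replicates 1 and 3 were the high libraries, and control replicate 2 lay within the nicotine range. The log2 fold change was -1.08 (standard error 0.36).

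Of the membrane genes, Slc4a1 encodes band 3, the anion exchanger of the red cell membrane, and Epb42 a skeleton protein that binds to it. Slc4a1 was at 6.7, 10.7 and 17.2 CPM after nicotine and at 44.3, 16.2 and 36.4 CPM in controls. The log2 fold change was -1.48 with a standard error of 0.38. As for Ahsp, control replicates 1 and 3 were high and control replicate 2 was below nicotine replicate 3. Epb42 was at 0.7, 0.586 and 1.27 CPM after nicotine and at 2.07, 1.68 and 2.11 CPM in controls, without overlap. These levels rest on few reads, 33, 54 and 77 counts after nicotine and 56, 89 and 80 for control rats. The exact Poisson interval of nicotine replicate 1 alone ran from 0.482 to 0.983 CPM. The log2 fold change of Epb42 was -1.20 (standard error 0.35).

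Hemgn encodes hemogen, a nuclear protein of blood-forming cells that is linked to red cell maturation. The nicotine libraries held 43, 94 and 156 of its counts and the control libraries 104, 218 and 163. As CPM that was 0.912, 1.02 and 2.58 CPM against 3.84, 4.12 and 4.31 CPM. The 3 control libraries were close together, at 4.09 ± 0.235 CPM (SD, n = 3), whereas the nicotine libraries spread around 1.5 ± 0.932 CPM (SD, n = 3) and did not reach them. The log2 fold change was -1.45 (standard error 0.37).

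Car1 encodes carbonic anhydrase I, an enzyme that converts carbon dioxide and water to bicarbonate and is abundant in red cells. It had the lowest log2 fold change of the 9 genes, -2.09, and the widest standard error, 0.64. Its levels were 1.44, 5.53 and 1.57 CPM after nicotine and 6.61, 25.6 and 4.89 CPM in controls. Control replicate 2 alone, with 1353 counts, held the high value, and nicotine replicate 2 exceeded control replicate 3. No other gene of the list had its highest value in control replicate 2. Without control replicate 2 the log2 fold change of Car1 was -0.97, and without nicotine replicate 2 it was -3.08.

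A log2 fold change of -1 or lower was found for 7 of the 9 genes, beside 2.02% of all genes. Over the 9 genes the median log2 fold change was -1.2, against 0.007 over all 17292 genes tested, and all 9 values were negative. The groups did not overlap for 3 of the 9 (Alas2, Hemgn and Epb42), all lower after nicotine, beside 5.14% of all genes. An unadjusted p under 0.05 in edgeR's quasi-likelihood test with lower levels after nicotine was found for 8 of the 9, beside 3.01% of all genes, and nothing is read from this since the list was drawn from this contrast. After Benjamini-Hochberg adjustment 0 of the 9 were called in edgeR at the study's thresholds (adjusted p under 0.1 and fold over 1.5), beside 0 of all genes (0%), although 520 genes were lower and 542 higher at an unadjusted p under 0.05. DESeq2 called 61 genes (0.339%), of which 43 were lower (0.239%), and 2 of the 9, Hemgn and Slc4a1, were among the lower.

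The differences leaned on single rats. With 1 library left out at a time all log2 fold changes of the 9 genes stayed negative, and leaving out nicotine replicate 3, the nicotine library with the most globin, gave the lowest values for 7 of them. The median was then -1.69, and it was -0.91 without nicotine replicate 2. Alas2 and Hemgn were at -1.88 and -2.07 without nicotine replicate 3. Hba-a2 ranged from -1.42 without nicotine replicate 3 to -0.41 without nicotine replicate 2.

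**Figure D2:**
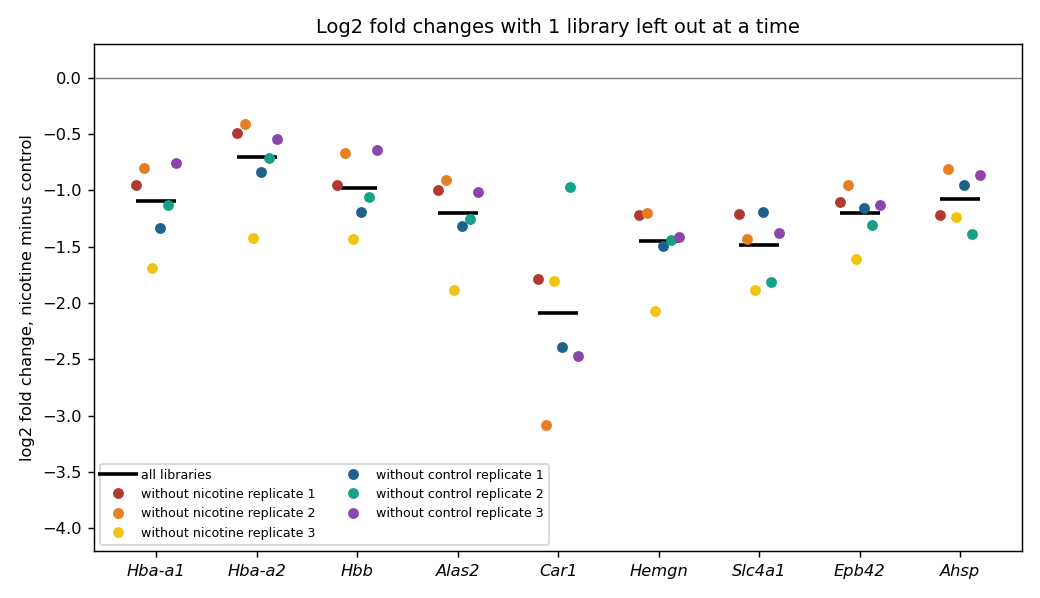
Log2 fold change (nicotine minus control, edgeR) of each of the 9 genes over all libraries (black bars) and with 1 library left out (coloured points). All points are below 0, and Car1 has the widest range, from -3.08 without nicotine replicate 2 to -0.97 without control replicate 2.

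The other red cell genes were taken from lists of globin chains, membrane and skeleton proteins, haem synthesis, red cell enzymes, erythroid transcription and maturation factors and haem handling. Of 77 genes listed, 69 were in the files and 60 were tested. The median log2 fold change of the 60 was -0.11. In edgeR 0 were called, with 3 higher and 10 lower at an unadjusted p under 0.05 (3.13% and 3.01% of all genes), and the lowest adjusted p was 0.492, that of Hp. The groups did not overlap for 12 lower and 2 higher genes, beside 5.14% and 6.12% of all genes. DESeq2 called 1, Hp, which was lower. Hp, Slc4a1 and Hemgn also stand on the list of genes that the study itself chose from these libraries, so they are not independent evidence of a direction.

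The other adult globin chains had negative log2 fold changes as the members did, but only some had the library order of Hba-a1, Hba-a2 and Hbb. Of 17 symbols listed, 10 were in the files and 5 were tested, all with negative log2 fold changes and a median of -0.94. Hbb-b1, a second beta gene, was at 356, 186 and 674 CPM after nicotine and at 597, 715 and 1073 CPM in controls (log2 fold change -0.97, standard error 0.40, edgeR adjusted p = 0.806). Within each group its libraries had the same order as for Hba-a1, Hba-a2 and Hbb. Hba-a3 was at 62.8, 34.7 and 126 CPM and at 77.4, 154 and 111 CPM, so its highest control was replicate 2. Hbb-bs had a log2 fold change of -0.94 and LOC100134871 of -0.86. In both, control replicate 2 was the lowest control, at 107 and 55.2 CPM, below nicotine replicate 3 at 168 and 77.1 CPM.

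Hbq1b, a theta-like globin gene, was at 1.02, 0.738 and 2.25 CPM after nicotine and at 2.81, 3.08 and 3.43 CPM in controls, without overlap (log2 fold change -1.24, standard error 0.39, edgeR adjusted p = 0.76). The embryonic and fetal chain genes were near or at 0. Hbe2, Hbg1 and Hbz had 0 counts in all 6 libraries, and Hbe1 and Hbq1 had only a few. The globins of other tissues differed little. Ngb (neuroglobin) had a log2 fold change of -0.32 and Cygb (cytoglobin) of 0.14, with edgeR adjusted p-values of 0.843 and 0.92.

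The membrane and skeleton list was split. Over its 16 tested genes the median was 0.05 on the log2 scale. Of these, 3 were lower and 1 higher without overlap, beside 5.14% and 6.12% of all genes. The blood group genes Rhd (-0.99, standard error 0.30) and Kel (-1.37, standard error 0.43) and the anchor protein gene Ank1 (-0.48, standard error 0.28) were lower without overlap, with adjusted p-values of 0.76, 0.76 and 0.825.

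The most abundant members of that list are also made by other cells. Dmtn (dematin), Aqp1 (a water channel) and Slc2a1 (a glucose transporter) had log2 fold changes of 0.15, 0.22 and 0.33 with adjusted p-values of 0.827 to 0.87. Sptb, which encodes beta spectrin and was picked after its values were seen, was at 28, 16.9 and 38 CPM after nicotine and at 14.3, 16.8 and 18.6 CPM in controls, the reverse of Slc4a1 and Epb42 (log2 fold change 0.73, adjusted p = 0.776). Tmod1, a tropomodulin gene, was higher without overlap by 0.18 on the log2 scale (adjusted p = 0.854).

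The haem synthesis genes apart from Alas2 lay near 0. The list had 12 tested genes and a median log2 fold change of -0.08, and 1 of them was lower without overlap, beside 5.14% of all genes. That gene was Fech, encoding ferrochelatase, the enzyme that puts iron into haem, at 33.7, 34.4 and 40.8 CPM after nicotine and at 51.3, 43.4 and 47.8 CPM in controls (log2 fold change -0.39, standard error 0.16, edgeR adjusted p = 0.806). Urod and Alad, enzymes of earlier steps, had log2 fold changes of -0.18 and 0.04. Alas1, the form of the first enzyme made in all tissues and picked after its values were seen, had a log2 fold change of 0.25 (standard error 0.21), opposite in sign to Alas2.

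The red cell enzyme list had 6 tested genes and a median of -0.15. Bpgm, which makes the oxygen affinity regulator 2,3-bisphosphoglycerate, was lower without overlap by a small amount (log2 fold change -0.26, standard error 0.15, adjusted p = 0.821). Car2, a relative of Car1, had a log2 fold change of -0.34 (standard error 0.33). Its highest control was also replicate 2, but that library did not stand alone as for Car1. Car2 was at 82.8, 86.4 and 64.8 CPM in control replicates 1, 2 and 3. Prdx2, an antioxidant enzyme, was at -0.05.

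Of the 16 tested genes of erythroid transcription and maturation, 5 were lower and 1 higher without overlap, beside 5.14% and 6.12% of all genes, and the median was -0.16. Gata1, the main transcription factor of the red cell line, was at 0.403, 0.38 and 0.512 CPM after nicotine and at 1.55, 0.738 and 1.35 CPM in controls (log2 fold change -1.44, standard error 0.40, edgeR adjusted p = 0.76). Trim58, a ubiquitin ligase of late erythroblasts, was at 0.276, 0.217 and 0.347 CPM and at 0.775, 0.643 and 1 CPM (log2 fold change -1.54, standard error 0.41, adjusted p = 0.76). The remaining lower genes were the transcription factor gene Nfe2 (-0.76), the transferrin receptor gene Tfr2 (-0.47) and Trim10 (-1.07). Zfpm1, which encodes a partner of GATA factors, was higher by 0.58 on the log2 scale (adjusted p = 0.798). The 3 most abundant genes of the list, Bnip3l, Ldb1 and Ube2o, are made in many tissues and had log2 fold changes of -0.20, 0.20 and 0.09.

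Hp encodes haptoglobin, the plasma protein that binds free haemoglobin. It was at 0.785, 1.14 and 1.17 CPM after nicotine and at 3.8, 2.33 and 3.91 CPM in controls, without overlap (log2 fold change -1.66, standard error 0.31, edgeR adjusted p = 0.492). The other tested genes that handle haem or its carriers did not share this. Lrp1, Blvra and Hmox1, the most abundant of them, had log2 fold changes of -0.01, -0.17 and 0.01.

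**Figure D3:**
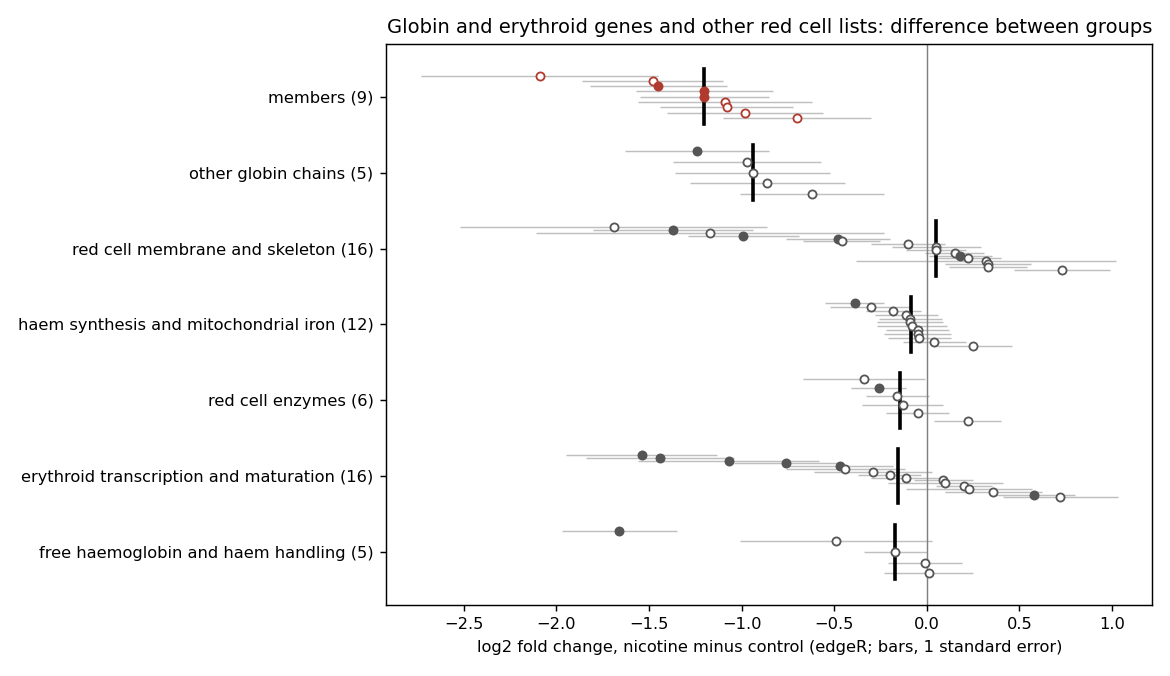
Log2 fold change (nicotine minus control, edgeR, with bars of 1 standard error) of the 9 globin and erythroid genes, named members in the plot (red), and of the tested genes of 6 other red cell lists (grey), with the number tested in brackets. Filled points are genes whose groups do not overlap and black bars are list medians, -1.2 for the 9 genes and between -0.94 and 0.05 for the other lists.

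Within a library, each erythroid gene can be set against the summed globin chains. Per 10000 globin counts, Alas2 gave 91.4, 113 and 114 counts after nicotine and 148, 125 and 112 counts in control rats. The groups thus overlapped, and the mean log2 difference was -0.27, against -1.20 for the level. Hemgn gave 1.73, 3.07 and 2.43 against 4.39, 3.51 and 2.45 (log2 difference -0.52), and Epb42 gave 1.33, 1.76 and 1.2 against 2.36, 1.43 and 1.2 (log2 difference -0.18).

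For these 3 genes, control replicate 1 held the highest ratio and control replicate 3, the library with the most globin, lay within or at the edge of the nicotine range. Slc4a1 ranged more widely, at 12.7, 32.2 and 16.2 per 10000 globin counts after nicotine and at 50.6, 13.8 and 20.8 in controls. Ahsp gave 7.17, 5.94 and 3.58 against 9.11, 3.18 and 4.85, a log2 difference of 0.04. For Car1 the ratio was high in the replicates numbered 2 of both groups, 16.6 after nicotine and 21.8 in controls, and between 1.48 and 7.55 in the other 4 libraries.

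None of the 6 ratios separated the groups, and the 3 genes with separate levels (Alas2, Hemgn and Epb42) were not separate per globin count. Without control replicate 1 the log2 difference of the ratio was 0.15 for Slc4a1 and 0.1 for Epb42, both of the opposite sign to that over all libraries. The ratio for Car1 lay between -1.94 without nicotine replicate 2 and -0.17 without control replicate 2.

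**Figure D4:**
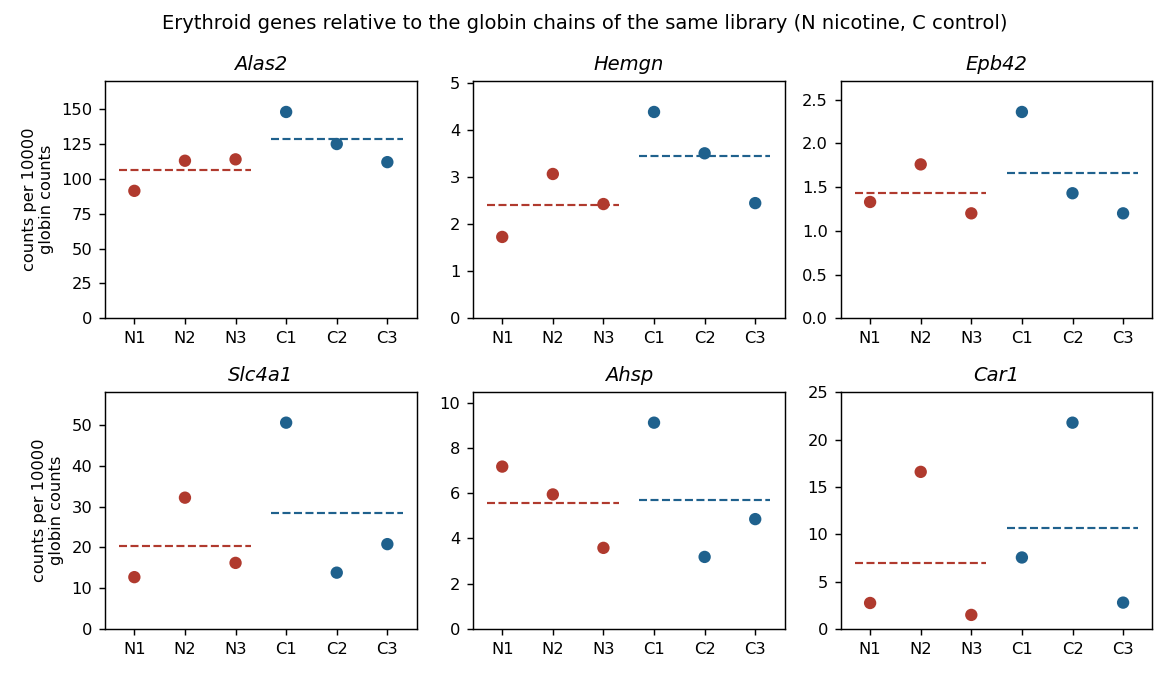
Counts of 6 erythroid genes per 10000 counts of the summed globin chains of the same library, on linear axes that start at 0. Points are single rats (N nicotine, C control) and dashed lines are group means. The groups overlap in all 6 panels, and N2 and C2 are high for Car1.

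Across the 6 libraries the 9 genes did not follow a single order. The similarity of each gene to the other 8 was described by Pearson's r of its log2 CPM with their mean over the 6 libraries, a description that the difference between the groups shapes and that has no test. It was 0.97 to 0.99 for Alas2, Hemgn and Epb42, 0.86 to 0.90 for Hba-a1, Hba-a2 and Hbb, 0.81 for Slc4a1, 0.74 for Ahsp and 0.33 for Car1. The mean log2 CPM of the 9 genes was 4.64, 4.57 and 5.55 after nicotine and 6.1, 6.17 and 6.43 in controls.

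Among the red cell genes, 3 kinds of order of the control libraries can be seen, though the kinds are not sharply divided. Hbq1b, Kel and Hbb-b1 were higher in control replicate 2 than in control replicate 1, as were Hba-a1, Hba-a2, Hbb, Alas2 and Hemgn. For Hemgn the Poisson intervals of control replicates 1 and 2 overlapped, at 3.14 to 4.65 and 3.59 to 4.71 CPM. Kel rested on 33 and 76 counts there. For such genes the order of the controls is within or near counting error. Rhd and Gata1 had control replicates 1 and 3 high and control replicate 2 nearer the nicotine libraries, as did Slc4a1 and Ahsp. Rhag and Ermap, membrane genes picked after their values were seen, rested on few reads. Their control replicates 1, 2 and 3 held 30, 1 and 14 and 31, 2 and 29 counts. For both genes control replicate 2 lay below every nicotine library in CPM, at 0.0189 and 0.0378 CPM. For Rhag, nicotine replicate 1 (0.403 CPM) was above control replicate 3 (0.37 CPM), so the order was not clear. Car1 alone of the 9 had the third order, with control replicate 2 the highest control. Several other red cell genes also had control replicate 2 as the highest control, among them Hba-a3, Klf1, Trim10, Car2, Aqp1 and Slc2a1. Control replicate 2 was the lowest control for Epb42, Hp, Trim58 and Nfe2. For Epb42 its Poisson interval of 1.35 to 2.07 CPM overlapped that of control replicate 1, 1.56 to 2.69 CPM.

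The second order was also that of the summed neutrophil granule genes. The 12 markers summed to 36.7, 47.4 and 41.2 CPM after nicotine and to 167, 23 and 121 CPM in controls. Of the 10 tested, 0 were called in edgeR, and 7 were lower at an unadjusted p under 0.05, beside 3.01% of all genes. None was free of overlap (5.14% of all genes lower, 6.12% higher), and the median log2 fold change was -1.8. Without control replicate 2, edgeR called 4 genes in all, Camp, Ngp, S100a8 and S100a9, each of this list and lower after nicotine. S100a9, the most abundant, was at 11.2, 10 and 10.9 CPM after nicotine and at 63.3, 3.92 and 44.9 CPM in controls. Lcn2, the next most abundant, did not have this order, at 11.4, 23.2 and 18.3 CPM after nicotine and at 21.3, 15.9 and 14.8 CPM in controls (log2 fold change 0.04). The primary granule gene Elane had 0 counts in nicotine replicate 3 and control replicate 2, and the secondary granule gene Ltf had 0 in nicotine replicates 1 and 3. The part of these cells in the levels of Slc4a1, Ahsp and Hp was not tested. With control replicate 2 left out, Slc4a1 had a log2 fold change of -1.81 and Ahsp of -1.39.

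Markers of other blood cells were also measured. The platelet list summed to 37.4, 14.7 and 24.2 CPM after nicotine and to 22.7, 23.5 and 17.9 CPM in controls, with a median log2 fold change of 0.01 and Gp1bb at 0 in all libraries. Its most abundant genes were Pf4, Treml1 and Itga2b. The B cell list summed to 5.01, 2.58 and 3.27 CPM after nicotine and to 5.58, 3.76 and 12.2 CPM in controls (median log2 fold change -1.09, 5 of 10 tested). Control replicate 2 was the lowest control there too, but control replicate 1 was close to nicotine replicate 1 and only control replicate 3 was high. The T cell list summed to 8.33 to 11.5 CPM after nicotine and to 9.97 to 13.4 CPM in controls (median -0.98, 5 of 5 tested). Lck was its most abundant gene, at a mean of 7.27 CPM and a log2 fold change of 0.03, and the other 4 were negative. Cd3g and Cd2 were lower without overlap, 2 of the 5 genes beside 5.14% of all genes, and 0 were higher without overlap. No gene of the 3 lists was called in edgeR, and 0, 1 and 3 of their genes were lower at an unadjusted p under 0.05, beside 3.01% of all genes. Their part in the red cell levels was not tested.

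Most vessel markers had log2 fold changes of the opposite sign, 7 of 8 above 0. The 8 endothelial genes summed to 178, 139.6 and 221 CPM after nicotine and to 125, 155 and 116 CPM in controls, with a median log2 fold change of 0.39. Tie1 was higher without overlap by 0.69 and Pecam1 by 0.83 on the log2 scale (edgeR adjusted p = 0.76 for both), 2 of the 8 genes beside 6.12% of all genes. Kdr, whose groups overlapped, had a log2 fold change of 0.44. Emcn was at 0.20 (adjusted p = 0.899) and Cldn5 at -0.15, the latter picked after its values were seen. The nicotine library with the highest endothelial sum, replicate 3, was also the nicotine library with the most globin. In the controls the library with the most globin, replicate 3, had the lowest endothelial sum.

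**Figure D5:**
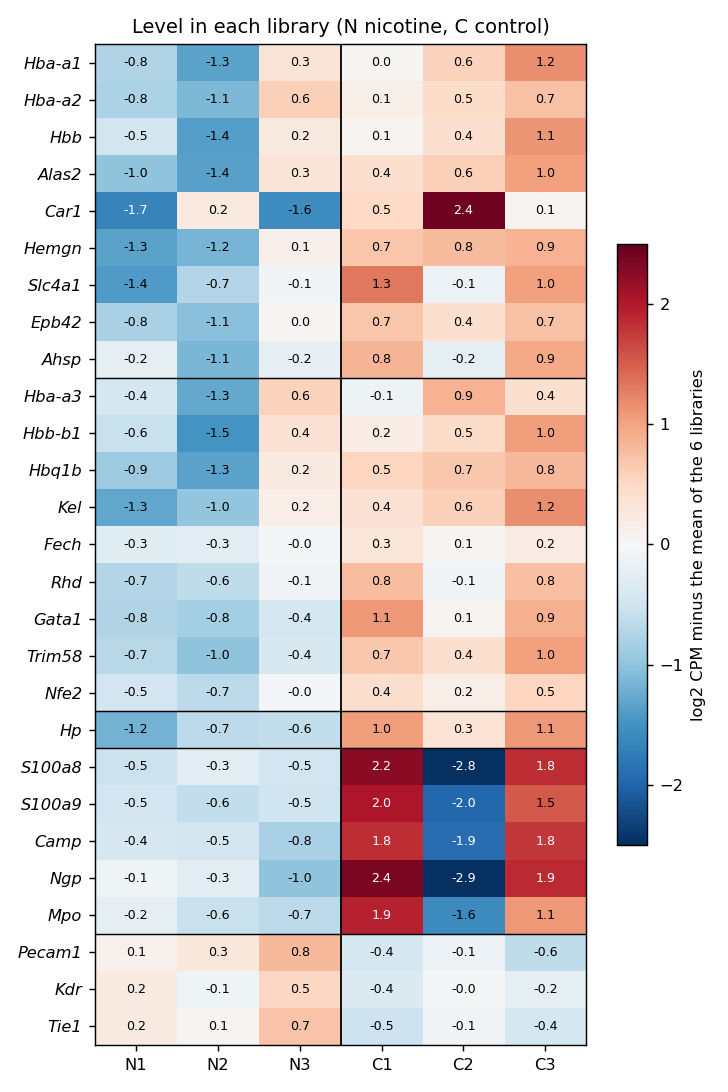
Log2 CPM of each gene minus its mean over the 6 libraries (red above, blue below, with the value in each cell), for nicotine (N1 to N3) and control (C1 to C3) rats. From the top, blocks hold the 9 globin and erythroid genes, other red cell genes, Hp, neutrophil granule genes and endothelial genes. C2 is low in the neutrophil genes and near 0 in Slc4a1, Ahsp and Rhd, and Car1 peaks in C2.

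Of all other genes, those whose log2 CPM was most like the mean of the 9 genes over the 6 libraries were Arl4d, Ptafr, Pik3cd, Slamf8, Wdfy4, Hbq1b, Arhgap12, LOC120102472, Phospho1 and Tspan8, with Pearson's r of 0.98 or 0.99. An r of 0.9 or more was reached by 137 of 14497 genes searched (0.945%). Arl4d was at 10.5, 10.2 and 14.1 CPM after nicotine and at 15.5, 17.1 and 17.5 CPM in controls. Of the 10, Hbq1b had the lowest log2 fold change, -1.24, and Arhgap12 the one nearest 0, -0.13. Phospho1, a phosphatase gene, was at 2.29, 1.98 and 3.88 CPM and at 4.14, 4.67 and 6.05 CPM. None of the 10 was called in edgeR, and all 10 had nicotine replicate 3 as the highest nicotine library.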

How the data were processed

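The files hold whole-number counts per gene symbol, 1 library per rat, deposited without normalization. Per the methods and labels, the authors mapped paired-end reads of stranded libraries to rn7 with HISAT2 2.1.0 and counted them with featureCounts. The strand setting, the handling of reads that fit several places, and whether reads or pairs were counted are not given in the sources used here. The extraction protocol in the labels describes testis.

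Genes were filtered with filterByExpr (17292 of 24546 with a count), scaled by TMM and compared with edgeR 4.0.16 (quasi-likelihood test, no covariate, Benjamini-Hochberg adjustment) in R 4.3.3. Levels are CPM after TMM, and log2 CPM used a prior count of 2. Each standard error was derived from the quasi-likelihood test, as the absolute log2 fold change divided by the square root of F. The thresholds for a call were those of the study, 0.1 for the adjusted p and 1.5 for the fold. The common biological coefficient of variation was 23.6%. The procedure was tested on simulated data.

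The members and lists were chosen with earlier results of these data known. The genes named are the 9 members, genes of a red cell list that were called or did not overlap, the 3 most abundant genes of a list, and the 10 genes most like the members' mean. One red cell gene is not reported here. Alternatives were DESeq2 1.42.0, RLE scaling, library sizes without scaling, the unfiltered table, a minimum of 10 counts per library, globin and erythroid genes left out of library sizes, thinning to 28318383 counts, a replicate block, and fits without each library. edgeR's older quasi-likelihood fit was chosen after seeing the data. Depth limits the precision of genes under about 100 counts in a library.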

Additional observations from a re-analysis of the deposited data

How the results depend on the processing

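The count of calls over all genes was 0 in edgeR and moved to 61 in DESeq2 (43 lower, 18 higher), to 1 with library sizes alone or with thinned counts (RT1-CE16 in both), and to 2 without the filter (RT1-CE16 and LOC310926). RLE scaling, the minimum of 10 counts, globin and erythroid genes left out of the library sizes, and the older edgeR fit gave 0. With 1 library left out, the counts ranged from 0 to 9 over all genes (9 without nicotine replicate 3, 4 without control replicate 2, 1 without nicotine replicate 2), from 0 to 2 among the 9 genes (Alas2 and Hemgn without nicotine replicate 3) and from 0 to 0 among the other red cell genes, and the median log2 fold change of the 9 genes from -1.69 to -0.91. DESeq2 called 2 of the 9 genes (Hemgn and Slc4a1) and 1 of the other red cell genes (Hp). The 4 genes called without control replicate 2 were the neutrophil granule genes Camp, Ngp, S100a8 and S100a9, all lower. The cause of these moves was not tested.

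The deviations of libraries with the same replicate number from their group means had correlations of 0.03, -0.2 and -0.08. Libraries with different numbers were not compared, so these values cannot show whether the numbers pair the rats. With the replicate number as a block, 2 genes were called (Car1 and LOC679963), of which 1, Car1, is among the 9, and 0 of the other red cell genes. The log2 fold changes of the 9 genes were negative under each alternative run. Apart from leaving out libraries, their range was widest for Car1, from -2.25 to -2.01. With Hbb alone as denominator or with thinned counts, the ratios to globin moved by less than the spread between rats. Leaving out 1 library cannot move a ratio beyond that spread by construction, so nothing is read from those runs being within it. They did change the sign for Slc4a1 (up to 0.15), Epb42 (up to 0.1) and Ahsp (down to -0.31, against 0.04 over all libraries). With 3 rats a group, small differences could not be seen. Few counts for Hemgn, Epb42, Gata1 and Trim58 add counting error, but depth was not the only limit. Hba-a1, with at least 110173 counts in each library, had a standard error of 0.47, above the 0.37 of Hemgn.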
